A study of Mus musculus with 8 samples.

Results

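Flt4, Vegfc, Prox1, Lyve1, Mmrn1, Reln, Slc6a2, Amigo2 and Nr2f2, 9 of the 27179 genes in the count table, were followed as genes of lymphatic and venous endothelium. They were listed by name from what is known of these vessels and not by a cutoff on a measured value. Earlier results of these data were known when they were chosen. Total RNA was sequenced from cells sorted out of tumor-bearing mouse lungs by their labelling with QZ1, an injected fluorescent probe that is switched on when a protease cuts it. All mice were C57BL/6 by the labels and C57BL/6J by the study's methods, carried an Eml4-Alk rearrangement, labelled a translocation and made in the lung by adenoviral delivery of Cas9 with its guides, were 18 to 22 weeks old and were taken 11 to 12 weeks after tumor induction, and all received 4.5 nmol of QZ1-(PEG2K) by tail vein 2 h before the lungs were removed. The 4 QZ1-hi libraries came from QZ1-positive cells and the 4 QZ1-lo libraries from QZ1-negative cells, both sorted from live lung cells gated as negative for CD45 and CD11b, and no group without the rearrangement or without the probe is analysed here. Each library is taken as a replicate, although neither labels nor methods name the mouse or mice behind it. The tests treat all libraries as independent, while both populations may come from the same mice. The replicate numbers follow accession order and are names only.

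Lymphatic vessels drain fluid and immune cells from the lung, and venous vessels return blood to the heart. Lymphatic endothelium arises in the embryo from venous endothelium that carries the nuclear receptor Nr2f2 (COUP-TFII) and switches on the homeobox factor Prox1, and it then sprouts toward the growth factor VEGF-C (Vegfc) through its receptor VEGFR-3 (Flt4). Other genes of the set mark the mature vessels: Lyve1 encodes a hyaluronan receptor, Mmrn1 the secreted protein multimerin 1, Reln the secreted glycoprotein reelin, Slc6a2 the noradrenaline transporter and Amigo2 an adhesion molecule, the last 2 being used, like Vegfc, as markers of lung venous endothelium.

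Library totals ran from 18380918 to 26847938 counts, of which 8749446 to 16389316 lay outside mitochondrial genes and ribosomal RNA. Mitochondrial ribosomal RNA took 39.5 to 58.4% of the counts in QZ1-hi and 30.2 to 47.3% in QZ1-lo. A fit without mitochondrial and ribosomal RNA genes is among the alternatives below, and other effects of this share were not tested. Although cells with CD45 on their surface were gated out, its gene Ptprc was at 71.4 to 222 CPM in QZ1-hi and 93.4 to 161 CPM in QZ1-lo. Levels are given as CPM, a gene's counts scaled to its library's size by the TMM method, and 3 counts, taken as the lowest readable level, came to between 0.0894 and 0.179 CPM. Of 15583 genes that passed the filter on low counts, 9.88% rose and 8.21% fell in QZ1-hi by edgeR with an adjusted p under 0.05, the threshold by which a gene is called here, and for 11.9% the lowest QZ1-hi library was above the highest QZ1-lo one. Endothelial RNA was read from Cdh5, Pecam1, Erg, Tie1, Cldn5, Egfl7, Esam and Ecscr, whose mean log2 CPM is called the pan-endothelial index. The index was 6.84, 6.02, 7.21 and 6.06 in QZ1-hi replicates 1 to 4 and 2.86, 3.41, 4.49 and 2.52 in QZ1-lo replicates 1 to 4, a difference of 3.21 (two-sided p = 0.0286 by exact permutation, the smallest that 4 against 4 libraries allow). QZ1-lo replicate 3 thus held the most endothelial RNA of its population. Cdh5 and Pecam1 of the index are among the genes that the study picked out as higher in these QZ1-hi libraries. The rise of the index is therefore not independent evidence. In such bulk samples fewer endothelial cells and less endothelial RNA per cell cannot be told apart.

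All 9 genes passed the filter, 8 were called higher in QZ1-hi and none was called lower (edgeR), and all 9 log2 fold changes, given throughout as QZ1-hi relative to QZ1-lo, were positive. In the same 8 genes the populations did not overlap (two-sided p = 0.0286 by exact permutation for each), and Prox1 was the exception in both counts. The median log2 fold change of the set was 3.30, against 0.02 over all genes tested, and the summed level of the 9 genes was 133 to 269 CPM in the QZ1-hi libraries and 20.3 to 40.6 CPM in the QZ1-lo libraries. Flt4 and Reln are among the genes that the study itself picked out in these libraries, so that their direction is not independent evidence. The same holds for Vwf, Dll4 and Pdgfrb of the lists below. The plot of the genes by library shows the 9 genes side by side.

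**Figure D1:**
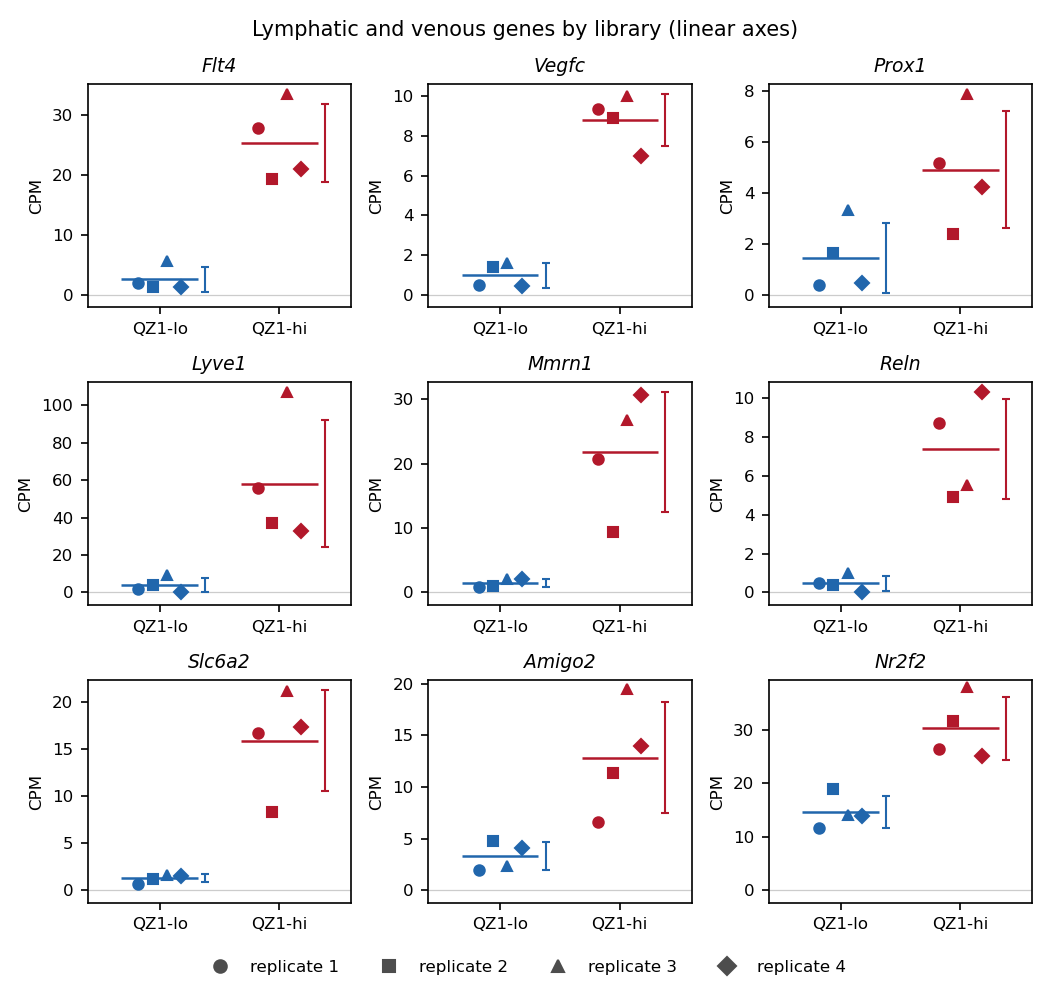
Each panel plots the CPM (linear axis from 0) of a gene in the 4 QZ1-lo (blue) and 4 QZ1-hi (red) libraries, with the replicate number as the symbol, the mean as a horizontal line and the SD as the bar beside it. The populations are apart in every panel but that of Prox1, where QZ1-lo replicate 3 at 3.33 CPM lies above QZ1-hi replicate 2 at 2.37 CPM.

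Promoter windows of 250 bases before to 50 bases after the annotated start were read from RefSeq on GRCm38.p6 for 7 of the 9 genes, which gave 8 windows since Prox1 has 2 starts. They were searched on both strands for AGGTCA, a nuclear receptor motif that factors such as Nr2f2 bind, for the SOX core ACAAT, the ETS core CCGGAA and the forkhead motif TGTTTAC, and no match overlapped another motif. AGGTCA was in 16.3% of all 32851 windows of the same length and in none of the 8, TGTTTAC was in 3.65% and in none, ACAAT was in 31.0% and in 1, and CCGGAA was in 14.9% and in 1. The windows of Mmrn1 (chr6:60944067-60944366, + strand, 44.3% G and C, start inside the GENCODE gene) and Reln (chr5:22344656-22344955, - strand, 80.7% G and C) are shown because they held these matches, ACAAT 3 times and CCGGAA once, and that of Flt4 (chr11:49609429-49609728, + strand, 70.3% G and C, start also inside the GENCODE gene) as the receptor of the set. Each is written 5′ to 3′, and capitals mark the matches on either strand.
Mmrn1: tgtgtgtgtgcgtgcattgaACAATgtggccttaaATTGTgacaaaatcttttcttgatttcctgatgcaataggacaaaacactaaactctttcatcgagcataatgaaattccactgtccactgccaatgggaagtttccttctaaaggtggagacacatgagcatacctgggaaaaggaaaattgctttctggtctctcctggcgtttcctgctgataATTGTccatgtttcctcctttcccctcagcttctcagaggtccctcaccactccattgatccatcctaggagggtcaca
Reln: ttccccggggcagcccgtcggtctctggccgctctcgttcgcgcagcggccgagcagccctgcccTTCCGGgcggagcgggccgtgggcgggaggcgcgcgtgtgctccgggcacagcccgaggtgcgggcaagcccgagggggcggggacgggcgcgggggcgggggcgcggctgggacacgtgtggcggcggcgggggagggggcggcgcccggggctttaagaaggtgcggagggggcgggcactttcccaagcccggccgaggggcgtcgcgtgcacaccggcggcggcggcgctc
Flt4: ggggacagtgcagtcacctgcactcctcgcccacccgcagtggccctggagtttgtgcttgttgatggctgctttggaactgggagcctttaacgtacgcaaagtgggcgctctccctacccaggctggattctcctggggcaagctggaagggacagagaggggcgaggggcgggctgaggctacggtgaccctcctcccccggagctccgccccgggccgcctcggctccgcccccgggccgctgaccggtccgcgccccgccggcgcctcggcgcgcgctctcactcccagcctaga
A match describes the letters in the window and is neither a bound site nor a cause.

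Flt4 and Vegfc, the receptor and its ligand, were both higher in QZ1-hi. Flt4 (Entrez Gene 14257, GRCm38 chr11:49609263-49652739, + strand) had 27.7, 19.2, 33.4 and 20.9 CPM in QZ1-hi replicates 1 to 4 and 1.97, 1.30, 5.57 and 1.35 CPM in QZ1-lo replicates 1 to 4. All QZ1-hi libraries were above all QZ1-lo libraries, and QZ1-lo replicate 3 stood above the other QZ1-lo libraries. The means were 25.3 ± 6.52 CPM and 2.55 ± 2.04 CPM (each SD, n = 4), and the log2 fold change was 3.30 ± 0.45 (SE, edgeR adjusted p = 0.000629). Without QZ1-lo replicate 3 it was 4.02. Vegfc (Entrez Gene 22341, chr8:54077606-54187096, + strand) had 9.36, 8.89, 10.002 and 6.97 CPM in QZ1-hi and 0.477, 1.38, 1.59 and 0.409 CPM in QZ1-lo. The QZ1-hi libraries lay close together and far above the QZ1-lo libraries, with means of 8.81 ± 1.31 CPM and 0.965 ± 0.610 CPM (each SD, n = 4). Vegfc thus had a log2 fold change of 3.19 ± 0.44 (SE, edgeR adjusted p = 0.000726).

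Of 7 further genes of the VEGF-C and VEGFR-3 pathway, 4 were called higher, none lower, and 3 were not called, with a median log2 fold change of 2.13 (edgeR). Vegfd, the other ligand of VEGFR-3, rose by 3.11 on the log2 scale (SE 0.41, adjusted p = 0.000577, edgeR). Kdr, which encodes VEGFR-2, rose by 2.54 on the same scale (adjusted p = 0.00138, edgeR). Adamts3, the protease that cuts the VEGF-C precursor, and Ccbe1, its cofactor, had log2 fold changes of 3.07 (adjusted p = 0.00523, edgeR) and 2.13 (adjusted p = 0.00876, edgeR). The related protease Adamts14 had a log2 fold change of 0.73 (adjusted p = 0.654, edgeR), the coreceptor Nrp2 of 0.70 (adjusted p = 0.147) and the integrin subunit Itga9 of -0.07 (adjusted p = 0.828), none of which passed. Per kb of exon, the log2 ratio of Flt4 to Kdr was -2.15 ± 0.28 in QZ1-hi and -3.06 ± 0.63 in QZ1-lo (each SD, n = 4), a difference of 0.91 without overlap (two-sided p = 0.0286 by exact permutation, the smallest possible). The log2 ratio of Vegfc to Vegfd was 0.03 ± 0.60 and -0.21 ± 0.44 (each SD, n = 4), which overlapped (two-sided p = 0.543 by exact permutation). These are among 4 ratios that were computed after the levels had been seen, and their p values are not adjusted.

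Prox1 and Nr2f2, the transcription factors of the set, had the smallest fold changes along with Amigo2. Prox1 (Entrez Gene 19130, chr1:190118035-190170714, - strand), which maintains lymphatic identity, had 5.17, 2.37, 7.86 and 4.23 CPM in QZ1-hi replicates 1 to 4 and 0.388, 1.63, 3.33 and 0.450 CPM in QZ1-lo replicates 1 to 4. The populations overlapped, with 3 of 4 QZ1-hi libraries above every QZ1-lo library. The means were 4.91 ± 2.29 CPM and 1.45 ± 1.38 CPM (each SD, n = 4), and the log2 fold change of 1.76 (SE 0.66) did not pass the threshold (adjusted p = 0.0946, edgeR). The call depended on QZ1-lo replicate 3, without which the log2 fold change was 2.59 (adjusted p = 0.0174, edgeR), and on the tool, since DESeq2 gave 1.76 (adjusted p = 0.0322) and limma-voom 2.43 (adjusted p = 0.0216).

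Prox1 is also made by neuroendocrine cells. The noradrenaline enzymes Th and Dbh were at 0 in all libraries, and the neuroendocrine secretory protein Chga was at 0 in QZ1-hi and at 23, 30, 24 and 0 counts in QZ1-lo replicates 1 to 4. Neither of the 2 neuroendocrine and neuronal markers that passed the filter, Calca (-1.93, adjusted p = 0.155, edgeR) and Syp (0.67, adjusted p = 0.622), was called by edgeR, DESeq2 or limma-voom, although 1 marker of the list was called lower by edgeR with library size only, with no filter or without QZ1-lo replicate 4, and 1, Calca, had an unadjusted p under 0.05 with a lower mean in QZ1-hi. The raw counts of Prox1 were 13, 40, 92 and 11 in QZ1-lo, so that replicates 3 and 2, which also had the highest endothelial index of QZ1-lo, were highest. The part of neuroendocrine cells in the Prox1 level was not tested.

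Nr2f2 (Entrez Gene 11819, chr7:70351944-70366735, - strand), which sets venous identity and is also expressed by stromal cells, had 26.4, 31.6, 37.9 and 25.1 CPM in QZ1-hi replicates 1 to 4 and 11.7, 18.8, 14.0 and 13.9 CPM in QZ1-lo replicates 1 to 4. The populations did not overlap, and the QZ1-lo libraries kept a clear level. The means were 30.2 ± 5.84 CPM and 14.6 ± 3.01 CPM (each SD, n = 4), and the log2 fold change was 1.05 ± 0.19 (SE, edgeR adjusted p = 0.00282). With scaling by library size only, which moved the median of all genes to -0.44, it was 0.62 and was no longer called (adjusted p = 0.104, edgeR). Of the exonic bases of Nr2f2, 7.46% overlap an annotated gene on the opposite strand, and for Prox1, Amigo2 and Reln the share is 1.59%, 1.83% and 1.04%, with the strand setting of the counting not given in the sources used here.

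The RNA of Lyve1, Mmrn1 and Reln, which encode lymphatic surface and secreted proteins, rose by between 3.93 and 3.96 on the log2 scale. Lyve1 (Entrez Gene 114332, chr7:110850607-110863239, - strand) had 55.8, 37.1, 107 and 32.8 CPM in QZ1-hi replicates 1 to 4 and 1.94, 3.74, 9.12 and 0.450 CPM in QZ1-lo replicates 1 to 4. QZ1-hi replicate 3 was far above the other QZ1-hi libraries, and the populations did not overlap. The means were 58.2 ± 34.0 CPM and 3.81 ± 3.79 CPM (each SD, n = 4), and the log2 fold change was 3.93 ± 0.69 (SE, edgeR adjusted p = 0.00245), which without QZ1-lo replicate 3 was 4.83. Some tissue macrophages also carry Lyve1. The 8 macrophage markers summed to 467, 553, 471 and 1121 CPM in QZ1-hi and to 478, 495, 322 and 745 CPM in QZ1-lo, and none of the 6 that passed the filter was called by edgeR, DESeq2 or limma-voom or had an unadjusted p under 0.05. These were F13a1 (0.82, adjusted p = 0.244, edgeR), Csf1r (0.53, adjusted p = 0.243), Mrc1 (0.46, adjusted p = 0.490), Adgre1 (0.38, adjusted p = 0.419), Cd68 (0.35, adjusted p = 0.482) and Ptprc (0.06, adjusted p = 0.929). Cd163 had 0 to 13 counts and Folr2 0 to 28 counts per library, and Mrc1 was at 302 and 220 CPM on average in QZ1-hi and QZ1-lo. The part of macrophages, or of endothelium other than lymphatic, in the Lyve1 level was not tested.

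Mmrn1 (Entrez Gene 70945, chr6:60924976-60989378, + strand) had 20.6, 9.34, 26.7 and 30.6 CPM in QZ1-hi and 0.775, 0.936, 2.03 and 2.01 CPM in QZ1-lo. The lowest QZ1-hi library, replicate 2, was still well above all QZ1-lo libraries. With means of 21.8 ± 9.27 CPM and 1.44 ± 0.673 CPM (each SD, n = 4), the log2 fold change was 3.93 ± 0.43 (SE, edgeR adjusted p = 0.000278). Reln (Entrez Gene 19699, chr5:21884454-22344702, - strand) had 8.73, 4.94, 5.55 and 10.3 CPM in QZ1-hi and 0.507, 0.366, 0.977 and 0 CPM in QZ1-lo. QZ1-lo replicate 4 held no count, which allows up to 0.123 CPM as far as counting error goes, and the populations did not overlap. The means were 7.38 ± 2.56 CPM and 0.463 ± 0.404 CPM (each SD, n = 4), with a log2 fold change of 3.96 ± 0.69 (SE, edgeR adjusted p = 0.00243), and of 4.59 without QZ1-lo replicate 3.

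The venous markers Slc6a2 and Amigo2 both rose, as did Vegfc above. Slc6a2 (Entrez Gene 20538, chr8:92960079-93001667, + strand), which in neurons takes up noradrenaline, had 16.7, 8.35, 21.2 and 17.4 CPM in QZ1-hi and 0.656, 1.22, 1.59 and 1.51 CPM in QZ1-lo. QZ1-hi replicate 2 was again the lowest of its population and the populations did not overlap. The means were 15.9 ± 5.40 CPM and 1.25 ± 0.425 CPM (each SD, n = 4), and the log2 fold change of 3.68 (SE 0.36) had the smallest adjusted p of the 9 genes (adjusted p = 0.000256, edgeR). Amigo2 (Entrez Gene 105827, chr15:97244125-97247287, - strand) had 6.61, 11.4, 19.5 and 13.9 CPM in QZ1-hi and 1.94, 4.76, 2.39 and 4.09 CPM in QZ1-lo. The lowest QZ1-hi library, replicate 1, was above the highest QZ1-lo library, replicate 2, but close to it. The means were 12.9 ± 5.37 CPM and 3.29 ± 1.35 CPM (each SD, n = 4), and the log2 fold change was 1.97 ± 0.38 (SE, edgeR adjusted p = 0.00412).

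Compared per kb of exon, Lyve1 was the most abundant of the 9 genes in QZ1-hi, at 19.9 ± 11.7 CPM per kb (SD, n = 4), and was above the next gene in 4 of 4 libraries without overlap of their ranges. Amigo2, Mmrn1, Vegfc, Nr2f2, Flt4 and Slc6a2 followed between 4.06 and 2.53 CPM per kb, and neighbours in this order overlapped. Prox1 at 0.585 ± 0.273 CPM per kb (SD, n = 4) was below all of them without overlap, and Reln at 0.311 ± 0.108 CPM per kb (SD, n = 4) was lowest. In QZ1-lo the order began with Nr2f2 at 1.695 ± 0.349 CPM per kb (SD, n = 4), Lyve1 at 1.31 ± 1.30 (SD, n = 4) and Amigo2 at 1.04 ± 0.43 (SD, n = 4), which overlapped. Reln was lowest there too, at 0.0195 CPM per kb, with no overlap with Prox1 at 0.173 CPM per kb.

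**Figure D2:**
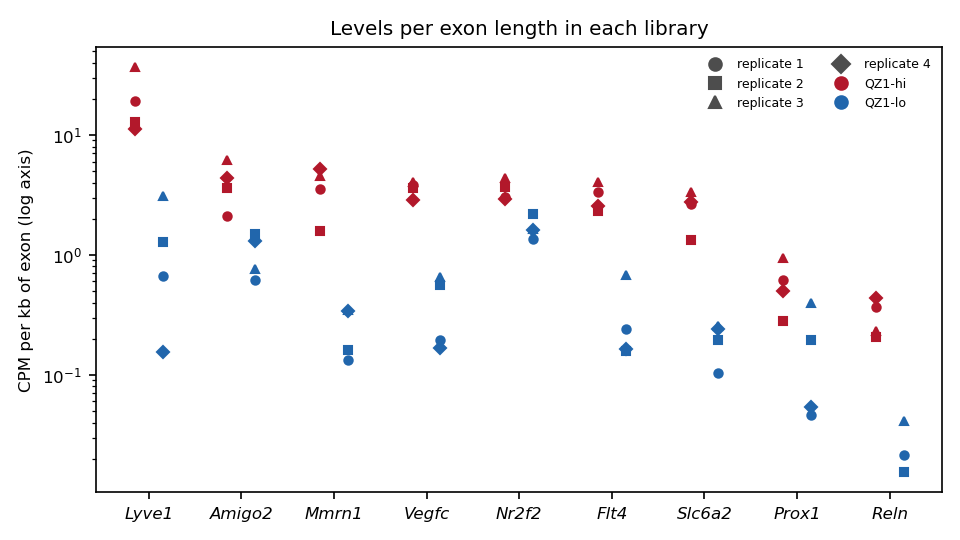
The level of each gene in CPM per kb of exon (log axis) is plotted for the 4 QZ1-hi and 4 QZ1-lo libraries, with the genes in the order of their QZ1-hi means. Lyve1 stands above the other genes in QZ1-hi, Nr2f2 leads in QZ1-lo, and Reln in QZ1-lo replicate 4, at 0, is not drawn.

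To ask whether these genes rose by more than endothelial RNA as a whole, the fit was repeated with the pan-endothelial index as an offset, so that a gene that followed the index has a log2 fold change of 0. On this scale 0.148% of the genes tested were called higher and 93.4% lower, since the index itself was 3.21 higher in QZ1-hi, and of the 9 genes none was called higher (none had an unadjusted p under 0.05 in that direction, and limma-voom with the same offset called Lyve1) and 2 were called lower (edgeR). In the relative edgeR fit each p value was that of a normal distribution for the log2 fold change over its SE. These p values make no allowance for the small number of libraries and may be too small, as may the adjusted ones. Flt4 had a relative log2 fold change of 0.29 ± 0.56 (SE, edgeR adjusted p = 0.613), Vegfc of 0.21 ± 0.63 (SE, adjusted p = 0.752) and Slc6a2 of 0.36 ± 0.59 (SE, adjusted p = 0.548). All 3 values were smaller than their SE, and with Cdh5 alone as the index they were -0.14, -0.28 and -0.15. Mmrn1 had 0.64 ± 0.58 (SE, edgeR adjusted p = 0.279), Lyve1 1.03 ± 0.56 (SE, adjusted p = 0.0727) and Reln 1.155 ± 0.68 (SE, adjusted p = 0.0957).

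Of the other endothelial lists, 6 of 12 lymphatic, 4 of 10 venous, 4 of 10 arterial and 2 of 9 capillary genes were also called lower relative to the index, and so were 2 of its own 8 genes, Esam (-1.60, adjusted p = 0.00546, edgeR) and Ecscr (-1.19, adjusted p = 0.0366). Of 8 fibroblast and pericyte markers 1 was called lower, and of 5 mesothelial markers 0, with median relative log2 fold changes of 0.27 and 0.18. All 6 macrophage, 2 neuroendocrine and neuronal and 8 epithelial markers tested were called lower. A relative value near 0 is thus not particular to endothelial genes. Nr2f2 was lower relative to the index by a log2 fold change of -2.25 ± 0.58 (SE, edgeR adjusted p = 0.000133). Amigo2 had -1.41 ± 0.59 (SE, edgeR adjusted p = 0.0179), a call that was lost without QZ1-hi replicate 1 (-1.145, adjusted p = 0.0950), without QZ1-lo replicate 2 (-1.32, adjusted p = 0.0520) or without QZ1-lo replicate 4 (-0.93, adjusted p = 0.136). Prox1 had -1.14 ± 0.70 (SE, edgeR adjusted p = 0.106). With capillary endothelial genes as the index, Lyve1 (1.36, adjusted p = 0.0173, edgeR) and Reln (1.46, adjusted p = 0.0341) were called higher and Amigo2 (-1.10, adjusted p = 0.0600) was not called. Leaving out a QZ1-lo library also made single calls: Reln without replicate 1 (1.58, adjusted p = 0.0499, edgeR), Lyve1 without replicate 3 (1.27, adjusted p = 0.0117) and Mmrn1 without replicate 4 (1.34, adjusted p = 0.0372).

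**Figure D3:**
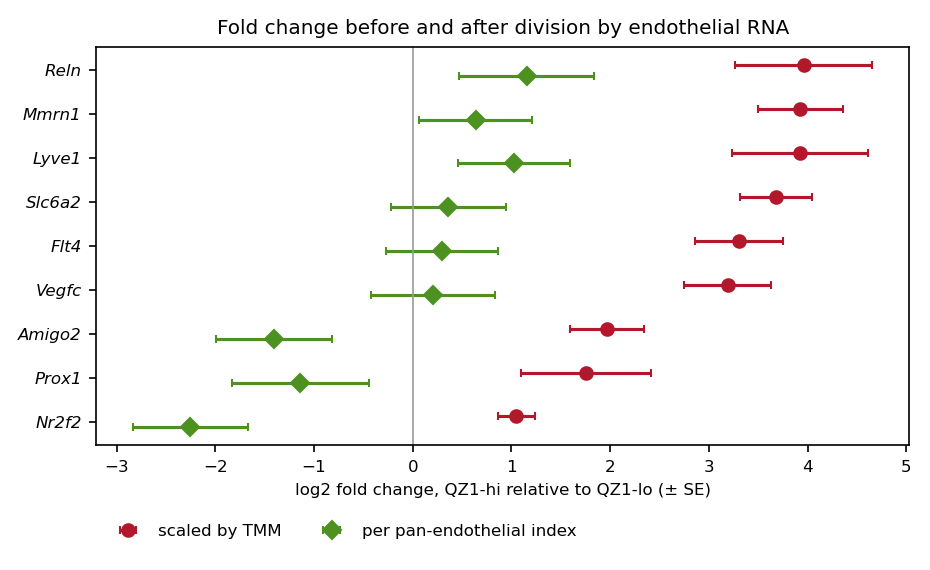
The log2 fold change of each gene (± SE, edgeR) is drawn as scaled by TMM (red circles) and relative to the pan-endothelial index (green diamonds). All 9 red points are above 0, while the green points run from -2.25 for Nr2f2 to 1.155 for Reln.

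Library by library, the log2 level of Lyve1 minus the index was -0.83 ± 0.26 in QZ1-hi and -1.99 ± 0.95 in QZ1-lo (each SD, n = 4, two-sided p = 0.0286 by exact permutation). The same difference for Prox1 was -4.33 ± 0.33 in QZ1-hi and -3.15 ± 0.60 in QZ1-lo (each SD, n = 4, two-sided p = 0.0286 by exact permutation), but this rests on the 0.1 CPM added to each level, and without it the populations overlapped (two-sided p = 0.0571 by exact permutation). For Nr2f2 it was -1.63 ± 0.50 and 0.54 ± 0.84 (each SD, n = 4), again without overlap (two-sided p = 0.0286 by exact permutation). Lyve1 and Nr2f2 did not overlap without the added 0.1 CPM either. The other 6 genes overlapped, with exact permutation p values from 0.143 for Amigo2 to 0.886 for Vegfc. These p values are the smallest the design allows where they are 0.0286, come from 9 tests and were not adjusted.

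**Figure D4:**
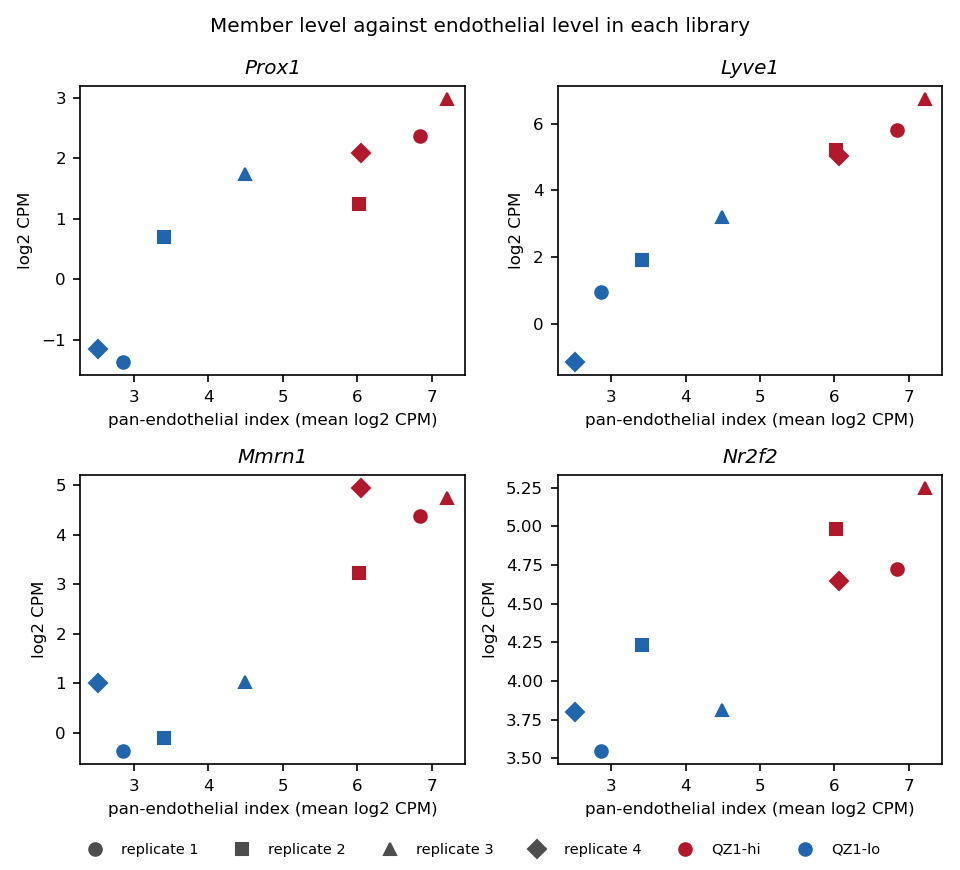
The log2 CPM of Prox1, Lyve1, Mmrn1 and Nr2f2 in each library (y axis) is plotted against the pan-endothelial index of that library (x axis, mean log2 CPM of 8 genes). QZ1-lo replicate 3 has the highest index of QZ1-lo, at 4.49, and the highest Prox1 and Lyve1 of that population.

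Of 13 other lymphatic endothelial genes 12 passed the filter, of which 10 were called higher, 1 lower and 1 was not called, with a median log2 fold change of 2.46 (edgeR). The chemokine gene Ccl21a, which has near-identical copies and is therefore uncertain, had a log2 fold change of 4.03 (adjusted p = 0.000499, edgeR), and the transcription factors Sox18 and Maf had 3.05 (adjusted p = 0.000863) and 1.96 (adjusted p = 0.000935). Pecam1, which all endothelium expresses, had 3.27 (adjusted p = 0.00137, edgeR). Pdpn, which the study lists for lymphatic endothelium and also for alveolar type 1 cells, had only 0.72 (adjusted p = 0.0157, edgeR). Relative to the pan-endothelial index it was lower, at -2.54 (adjusted p = 2.17e-05, edgeR). Foxc2, a factor of lymphatic valves, had 30, 15, 14 and 15 counts in QZ1-hi and 0, 0, 2 and 0 counts in QZ1-lo, so that the size of its fold is not given. Tbx1 fell by 1.14 on the log2 scale (adjusted p = 0.0321, edgeR), a call not made by limma-voom and lost on leaving out QZ1-hi replicate 1, 3 or 4 or QZ1-lo replicate 2 or 3, and Thy1 had 1.18 (adjusted p = 0.104). Cldn11 did not pass the filter.

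Of 11 other venous genes 10 passed the filter, with 7 called higher, none lower, 3 not called and a median log2 fold change of 2.25 (edgeR). Vwf, encoding von Willebrand factor, had 3.42 (adjusted p = 0.000278, edgeR), Cpe 2.68 (adjusted p = 0.000526), the venous ephrin receptor Ephb4 1.90 (adjusted p = 0.00116) and Prss23 2.29 (adjusted p = 0.00138). Nrp2, Bst1 (0.42, adjusted p = 0.344, edgeR) and Car8 (-0.52, adjusted p = 0.0825) were not called. Ackr1, a chemokine-binding protein of venules, did not pass the filter, with 17, 0, 39 and 17 counts in QZ1-hi and 0 in each QZ1-lo library.

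Genes of arteries and capillaries were also higher in QZ1-hi. Of 11 arterial genes 10 passed the filter and 7 were called higher and none lower, with a median of 2.23 (edgeR), led by Sema3g (3.28, adjusted p = 0.000543), the Notch ligand Dll4 (3.29, adjusted p = 0.000629), Hey1 (2.28, adjusted p = 0.000761) and Gja4 (3.49, adjusted p = 0.000853). Gja5 (2.18, adjusted p = 0.0631, edgeR), Bmx (0.96, adjusted p = 0.218) and Cxcr4 (-0.57, adjusted p = 0.117) were not called, and Hey2 did not pass the filter. Of 9 capillary genes 8 were called higher, with a median of 3.14 (edgeR), led by Prx (3.14, adjusted p = 0.000368), Cd93 (2.39, adjusted p = 0.000413), Gpihbp1 (3.46, adjusted p = 0.000547) and Ptprb (3.45, adjusted p = 0.000561), while Car4 was not (0.99, adjusted p = 0.0567). All 8 genes of the pan-endothelial index were called higher, with a median of 3.28, led by Tie1 (3.67, adjusted p = 0.000364, edgeR), Ecscr (2.18, adjusted p = 0.000375), Cdh5 (3.54, adjusted p = 0.000837) and Esam (1.73, adjusted p = 0.000998). No difference between these lists was tested.

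Markers of fibroblasts, pericytes and mesothelium were also higher in QZ1-hi. Of 8 fibroblast and pericyte markers 6 were called higher, with a median log2 fold change of 3.21 (edgeR) and sums of 1030 to 2053 CPM in QZ1-hi and 34.95 to 244 CPM in QZ1-lo. Pdgfra (3.38, adjusted p = 0.000876, edgeR), Pi16 (3.34, adjusted p = 0.00125), Dcn (3.16, adjusted p = 0.00180) and Col1a1 (3.26, adjusted p = 0.00185) led the list, and Tcf21 (3.05, adjusted p = 0.0907) and the pericyte gene Cspg4 (1.06, adjusted p = 0.119) were not called. All 5 mesothelial markers, among them Wt1 (3.26, adjusted p = 0.0152, edgeR), Upk1b (2.91, adjusted p = 0.0242), Msln (1.91, adjusted p = 0.0247) and Lrrn4 (2.83, adjusted p = 0.0377), were called higher, with sums of 62.2, 290, 41.9 and 72.4 CPM in QZ1-hi and 6.06 to 39.2 CPM in QZ1-lo, but none of the 5 was called without QZ1-hi replicate 2 (edgeR) and 2 were called without QZ1-lo replicate 1, 3 or 4. Of 8 epithelial markers 1 was called higher and 6 lower, with a median of -1.03. Cdh1 (-1.34, adjusted p = 0.000609, edgeR), Foxj1 (-2.07, adjusted p = 0.000849), Epcam (-1.17, adjusted p = 0.00158) and Scgb1a1 (-2.38, adjusted p = 0.00227) were lower, the surfactant gene Sftpc was higher (0.78, adjusted p = 0.0231) and Sftpb was not called (0.39, adjusted p = 0.290). The part of these cells in the levels of Nr2f2, Amigo2 or the other genes was not tested.

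**Figure D5:**
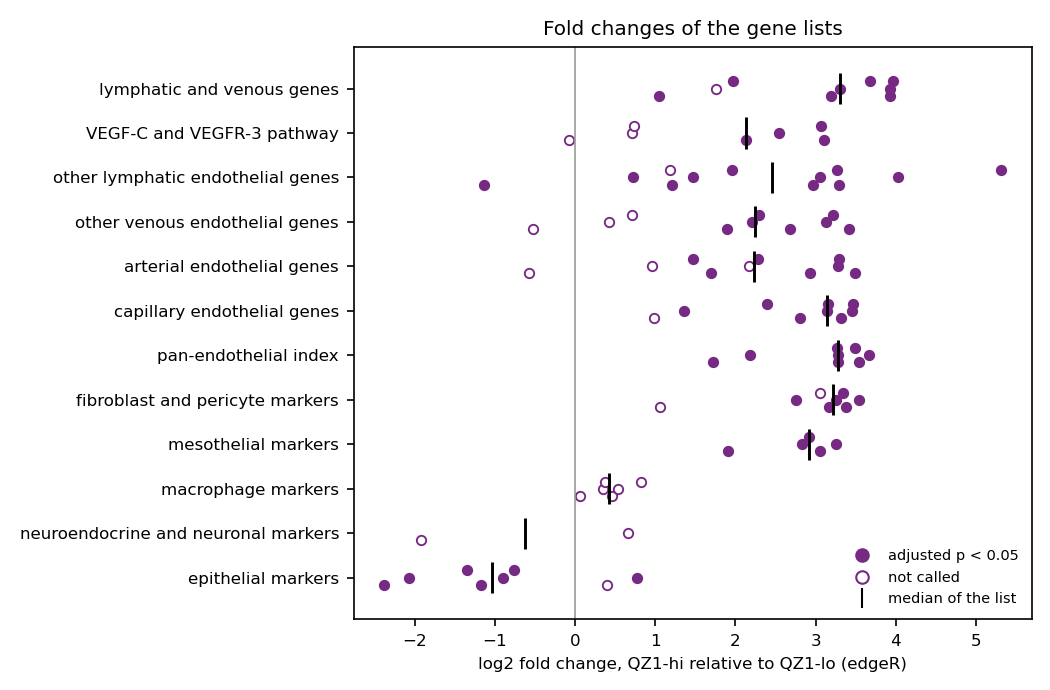
Each point is the log2 fold change of a gene that passed the filter (x axis, edgeR), by list (rows), filled where the adjusted p was under 0.05, with the median of the list as a vertical mark. The 9 lymphatic and venous genes have a median of 3.30, beside 3.28 for the pan-endothelial index, 3.14 for capillary genes and 0.42 for macrophage markers, and the outermost point, Foxc2, rests on 2 counts in QZ1-lo.

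Over the 8 libraries the 36 pairs of the 9 genes had Pearson r of log2 CPM between 0.70 and 0.99. Within populations, taken as deviations from the population means, r ran from -0.48 to 0.92 with a median of 0.40, and 7 pairs were negative. The closest pair was Mmrn1 and Slc6a2, with r of 0.921 within populations and 0.914 without QZ1-lo replicate 3. For Flt4 and Vegfc these values were 0.558 and 0.026. With the pan-endothelial index, r within populations was 0.953 for Lyve1, 0.939 for Prox1, 0.871 for Flt4 and 0.842 for Vegfc, while it was 0.519 for Reln, 0.512 for Slc6a2, 0.347 for Nr2f2, 0.330 for Mmrn1 and -0.08 for Amigo2. Without QZ1-lo replicate 3 these were 0.914 for Lyve1, 0.879 for Prox1, 0.678 for Flt4, 0.727 for Vegfc, 0.134 for Reln, 0.464 for Slc6a2, 0.594 for Nr2f2, 0.129 for Mmrn1 and 0.186 for Amigo2. These are descriptions over 8 libraries that share population and depth, and carry no test.

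The genes outside the set whose log2 CPM followed each of the 9 most closely over the 8 libraries were taken from 14357 genes with a mean of at least 1 CPM, the 2 with the highest Pearson r for each. For Flt4 these were Adcy4 (r = 0.997) and Cyyr1 (r = 0.995), for Vegfc Chrm2 (r = 0.996) and Bdkrb1 (r = 0.993), and for Prox1 Ebf1 (r = 0.979) and Thsd1 (r = 0.970). For Lyve1 they were Foxf1 (r = 0.998), a forkhead factor of lung mesenchyme and endothelium, and Kdr (r = 0.995), for Mmrn1 Sash1 (r = 0.9885) and Xdh (r = 0.987), and for Reln Kif26a (r = 0.9865) and Brd9 (r = 0.986). For Slc6a2 they were Xdh (r = 0.994), also named for Mmrn1, and Stab2 (r = 0.990), a hyaluronan receptor like Lyve1, for Amigo2 Fcgrt (r = 0.986) and Fam20a (r = 0.974), and for Nr2f2 Gfod1 (r = 0.988) and Tpst1 (r = 0.9875). The 8 libraries fall into the 2 populations, so that these r values describe mostly the step between them and carry no test.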

How the data were processed

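Total RNA of 4 QZ1-hi and 4 QZ1-lo libraries was prepared by the authors with a stranded SMARTer kit and sequenced on a NextSeq500. The authors deposited a table of raw, unnormalized read counts that Rsubread had assigned to genes. The submitters' processing notes name mm10 and DESeq2. The aligner, the annotation and the strand setting are not given in the sources used here. Symbols were matched for 25275 of 27179 Entrez Gene identifiers, 1904 having none, and positions and exon lengths were taken from GENCODE M21 on GRCm38, the assembly also called mm10.

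The fits used edgeR 4.0.16 in R 4.3.3 (TMM factors from 0.660 to 1.35, filterByExpr with a minimum count of 10 and a minimum total of 15, quasi-likelihood test, common dispersion 0.113), and p values were adjusted over 15583 genes by the Benjamini-Hochberg method. As the SE of a log2 fold change, its absolute value over the root of the F statistic was used. In the relative fit the log of the pan-endothelial index (geometric mean CPM with a pseudocount of 0.1 CPM) was added to the offset and treated as known without error. Its p values were those of a normal distribution, without allowance for the small number of libraries, so that calls relative to the index may be too many. Single values were compared by exact permutation over 70 assignments, and correlations used log2(CPM + 0.5). A floor of 3 counts covers counting error only, since the counts are of reads and not of molecules. Alternatives used DESeq2 1.42.0 and limma 3.58.1 and left out each library in turn. The fits were tested on simulated data. All 9 genes are given in full, and of each list the text names up to 4 genes with the smallest adjusted p and those not called. Further genes (Foxc2, Tbx1, Pdpn, Sftpc and single markers) and the ratios were chosen after their values were seen. The genes and the lists were chosen with earlier results of these data known. Lists are described by counts and medians, with no set test.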

Additional observations from a re-analysis of the deposited data

Results flagged for a closer look

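Flt4 in QZ1-lo replicate 3, at 5.57 CPM, stood apart from the other QZ1-lo libraries: its gap to the nearest of them was 0.844 of the range of the population, above the 95% critical value of Dixon's test for 4 samples. It was the only one so marked among 18 groups of values, the 9 genes in each population, a number at which chance alone marks about 1. The same library had the highest pan-endothelial index of QZ1-lo, at 4.49 mean log2 CPM, and the part of that in the Flt4 level was not tested.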

How the results depend on the processing

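All 9 log2 fold changes stayed positive in each alternative that gave a value. The number called higher was 7 to 9: 9 with DESeq2 and limma-voom, 7 with library size only (without Nr2f2), 7 with at least 10 counts in every library (Reln then was not tested) and 8 to 9 over the fits leaving out a library. With mitochondrial and ribosomal RNA genes removed, 8 of the 9 genes were called higher and Prox1 was not called (1.757, adjusted p = 0.0943, edgeR). Over all genes, 882 were called higher and 2509 lower with library size only, and 902 and 665 at an adjusted p under 0.01, while leaving out a library gave 1136 to 1506 and 938 to 1201. Relative to the endothelial index, 2 genes were called higher with capillary genes as the index, 1 with limma-voom and 0 to 1 on leaving out a library, and 1 was called lower with capillary genes, 1 at an adjusted p under 0.01 and 1 to 2 on leaving out a library. The direction relative to the index turned for Flt4 (-0.14), Vegfc (-0.28) and Slc6a2 (-0.15) with Cdh5 alone, and for Vegfc with the median ratio (-0.06574) and without QZ1-hi replicate 2, its range over the fits leaving out a library being -0.001665 to 0.49. Prox1 relative to Cdh5 alone was called lower (-1.61, adjusted p = 0.0365, edgeR). The cause of these changes was not tested. No paired analysis was possible because neither the labels nor the methods say which libraries of the populations came from the same mouse. The difference of Prox1 from the index per library was no longer at the smallest p without the pseudocount, an alternative chosen after seeing the data. Counting depth limits Prox1, Vegfc, Lyve1 and Reln in QZ1-lo, where some levels came to within a few times the floor. Slc6a2 and Mmrn1 were also low there, at 22 and 26 counts in QZ1-lo replicate 1.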
